A study of Mus musculus with 42 samples.

Results

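The comparison set the striatum against the hippocampus of mice labelled as knockouts for PDE10A and treated with an inhibitor of PDE10. All arrays whose titles name this genotype and treatment were taken, 4 from striatum (numbered 34, 35, 37 and 39) and 5 from hippocampus (34, 35, 36, 37 and 39), so 9 of the 42 arrays of the study were compared, across 18193 genes. These groups are called KO PDE10i striatum and KO PDE10i hippocampus. The tissue was microdissected from C57BL6 mice, snap-frozen, and its total RNA was hybridised as biotin-labelled cRNA. The regional difference in untreated mice was taken from 5 striatal and 6 hippocampal arrays of wild-type mice given vehicle (WT Veh). The remaining arrays came from KO mice given vehicle (KO Veh, 5 and 5) and from wild-type mice given the inhibitor (WT PDE10i, 6 and 6). The sources name neither the compound, its dose and the time from dosing to dissection nor the deleted part of the gene. The labels do not state that each array of a group is a separate animal, so p-values cover only the array-to-array spread, which could be technical. The question was which genes that mark one region or the other kept their regional difference with the enzyme labelled as lost and the drug given.

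The striatum is built mostly of GABAergic projection neurons of the direct and the indirect pathway. Direct pathway neurons carry the dopamine D1 receptor with substance P and dynorphin, and indirect pathway neurons carry the D2 receptor with enkephalin. Both hold much of the machinery that makes, reads and breaks down cAMP, and PDE10A, which hydrolyses cAMP and cGMP, is among their most abundant phosphodiesterases. The hippocampus is built mostly of glutamatergic neurons, the granule cells of the dentate gyrus and the pyramidal cells of the CA fields, together with several kinds of interneuron.

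Values are log2 signals as deposited, and a difference is the mean of the striatal arrays minus that of the hippocampal arrays on this scale, with its standard error (SE) from a limma model of all 42 arrays. A gene passed when its p, adjusted by Benjamini-Hochberg over 18193 genes in limma, was under 0.05. In tissue RNA, fewer cells of a type and less RNA per cell cannot be told apart.

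Pde10a, the targeted gene, gave 12.20, 12.99, 12.39 and 12.08 in KO PDE10i striatum, against 9.51, 9.80, 9.73, 9.59 and 9.81 in KO PDE10i hippocampus. The regions did not overlap, and the difference was 2.73 ± 0.21 (adjusted p = 1.52e-13), with the other 4 probe sets of the gene past the threshold in the same direction. In WT Veh mice the striatal arrays lay between 12.06 and 12.65 and the regional difference was 3.32. Its signal in the striatum of mice labelled KO was thus not lower than in the wild type, and the deleted part of the gene not being known, these probe sets do not check the labels. A score from other genes of chromosome 17, on which Pde10a lies, was scaled to 0 in WT Veh and 1 in KO PDE10i arrays. Its 15 genes per region had been chosen for their difference with the genotype label in the other region. It ran from 0.92 to 1.17 on the 9 KO PDE10i arrays and from -0.215 to 0.214 on the 11 WT Veh arrays. On 8 arrays of the KO Veh and WT PDE10i groups it lay on the other genotype's side of 0.5, so the contrast with WT Veh is given most room below.

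Striatal array 35 stood apart. Its correlation with the other 3 striatal arrays over all probe sets was 0.979 to 0.986, against 0.993 to 0.996 among those 3. The signal of the Gapdh control was 0.67 higher at its 3′ end than at its 5′ end on this array, against 0.14 to 0.30 on the other 3 striatal arrays. In the WT Veh group striatal array 4 stood apart further, with a Gapdh difference of 1.05 and correlations of 0.982 to 0.987 with the other WT Veh striatal arrays. Without it 4837 genes passed between the regions of WT Veh mice, against 6160 with it. Markers of cortical and hippocampal glutamatergic neurons (11 measured, cortical and hippocampal glutamatergic list) averaged 9.98, 7.92, 9.04 and 9.55 on striatal arrays 34, 35, 37 and 39, against 10.30 to 10.45 on the hippocampal arrays. Neurog2 stayed between 4.28 and 4.50 on the striatal arrays, near the low end of the signal range, and each of the other markers reached at least 8.70 on some striatal array. The vesicular glutamate transporter Slc17a7 showed the same order of arrays, with 10.76, 6.57, 9.06 and 10.00 in striatum against 10.69 to 11.21 in hippocampus. Choroid plexus markers (11 measured, choroid plexus list) averaged 5.07, 8.58, 5.64 and 6.66 on the same striatal arrays, against 8.63, 6.40, 9.00, 5.99 and 7.91 on the hippocampal arrays. Array 35 was thus the lowest of the striatal arrays in glutamatergic RNA and the highest in choroid plexus RNA. The part that these markers play in the regional differences below was not tested. Array 35 was left out in 1 fit. A fit with the glutamatergic mean of the striatal arrays as a covariate was added after the data were seen. The covariate was held constant on hippocampal arrays and centred over all striatal arrays, so it adjusts only for differences among striatal arrays. It cannot remove a glutamatergic difference between the regions that all striatal arrays share. With this covariate 2372 genes were higher and 3425 lower in KO PDE10i striatum.

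**Figure D1:**
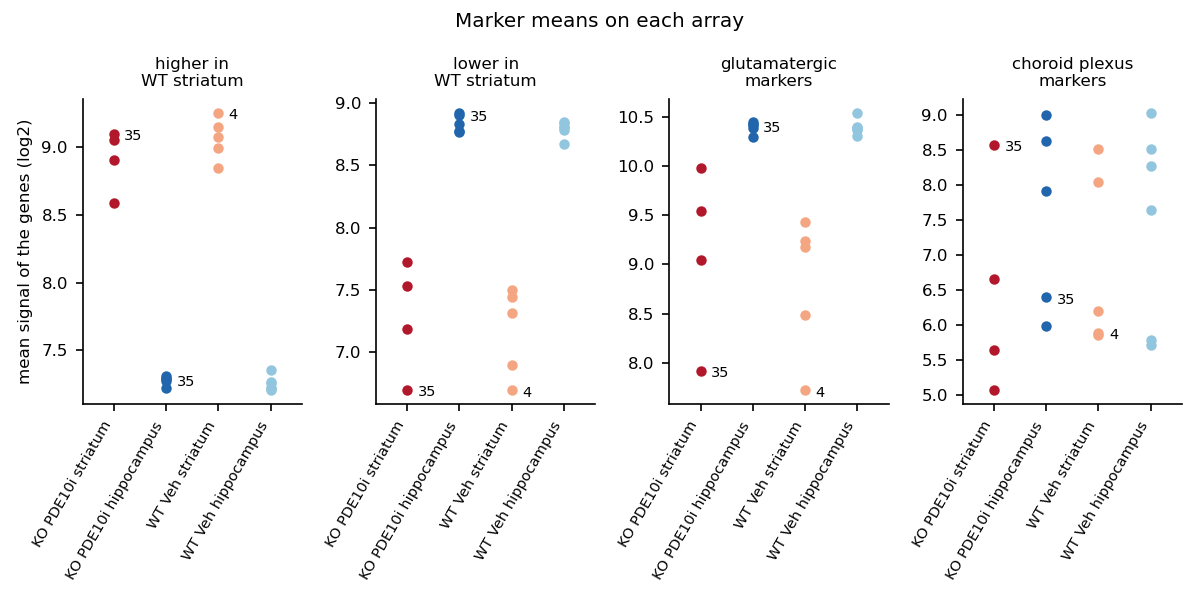
Mean log2 signal (vertical axes) on each array of KO PDE10i striatum, KO PDE10i hippocampus, WT Veh striatum and WT Veh hippocampus, 1 point per array. The panels show the genes at least 2-fold higher in WT striatum, those at least 2-fold lower there, 11 glutamatergic markers and 11 choroid plexus markers. Striatal array 35 of the KO PDE10i group and array 4 of the WT Veh group, both marked by number, are the lowest of their groups in glutamatergic markers, and the choroid plexus means are spread widely in all 4 groups.

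In KO PDE10i mice 4745 genes passed, 26.1% of those tested. Of these, 1924 genes (10.6%) were higher and 2821 (15.5%) were lower in striatum than in hippocampus. These shares are the background for the list counts below. The lists were chosen with earlier results of these data known, and some share genes. Their counts are therefore descriptions and not independent of each other. The split depended on the scaling, with 3186 higher and 2066 lower after each array was centred on its median, and 2446 higher and 2528 lower after a further quantile normalization. Differences of at least 2-fold were fewer, with 263 genes higher and 375 lower (3.51%), and 70 higher and 72 lower reached 4-fold. The arrays of the regions did not overlap for 4138 genes (22.7%), 1669 with every striatal array above and 2469 with every striatal array below. Without striatal array 35, 1592 genes were higher and 2002 lower.

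Genes of striatal projection neurons and of hippocampal granule and pyramidal cells were among the largest differences in KO PDE10i mice. On the striatal side, Gpr6, an orphan receptor of indirect pathway neurons, gave 9.71, 10.98, 10.71 and 10.27 in striatum, against 5.57, 4.38, 5.14, 4.69 and 5.31 in hippocampus. All striatal arrays stood more than 4 log2 units above all hippocampal ones, and the difference of 5.40 ± 0.31 (42.3-fold) was the largest of all genes. The dopamine D2 receptor gene Drd2 (4.90), the enkephalin precursor Penk (4.79), the transporter gene Slc35d3 (4.73), Syndig1l (4.70), the dopamine D1 receptor gene Drd1 (4.51), the tryptophan-degrading enzyme Ido1 (4.33), the sodium channel subunit Scn4b (4.27), the substance P precursor Tac1 (4.26) and the transcription factor Foxp2 (4.15) followed in size. On the hippocampal side, desmoplakin (Dsp, -4.68), lactase (Lct, -4.46), the AMPA receptor partner Shisa6 (-3.81), the calcium-binding protein Cabp7 (-3.80), the protocadherin Pcdh20 (-3.69), the transcription factors Prdm8 (-3.68) and Neurod1 (-3.66) and the secreted C1ql2 (-3.58) led. Tdo2, which opens the same tryptophan pathway as Ido1, lay on the opposite side at -3.45. The 30 largest, 15 in each direction, ran from 3.13 to 5.40 in size with no adjusted p above 8.42e-05.

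**Figure D2:**
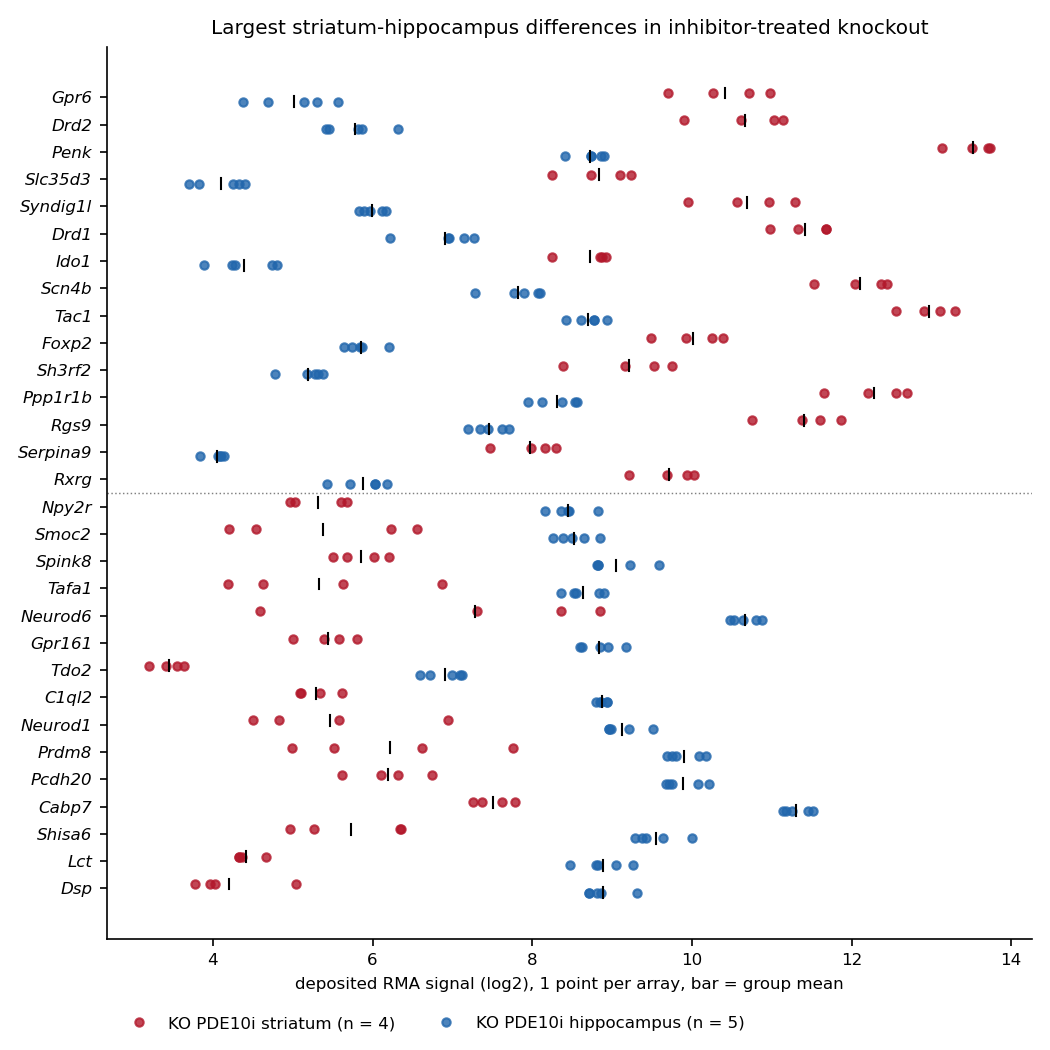
Deposited log2 signal (horizontal axis) of the 15 genes with the largest difference in each direction, above the dotted line higher and below it lower in striatum, on each KO PDE10i array. Red points are the 4 striatal arrays, blue points the 5 hippocampal arrays and bars the group means. The regions do not overlap for any of the 30, which the choice of genes required, and genes such as Neurod6 and Prdm8 spread over 2 or more log2 units among the striatal arrays.

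Direct pathway genes were higher in striatum for 8 of 10 measured, beside 10.6% of all genes, with a median difference of 2.44 against 0.006 over all genes. Drd1 gave 10.98, 11.67, 11.68 and 11.33 in striatum, against 7.27, 6.22, 6.96, 6.94 and 7.14 in hippocampus (4.51 ± 0.24, adjusted p = 8.49e-18). The lowest striatal array was array 34 and the regions did not overlap. Tac1 gave 12.56, 13.29, 13.11 and 12.90 in striatum, against 8.77, 8.43, 8.94, 8.62 and 8.77 in hippocampus (4.26 ± 0.17). It was again lowest on striatal array 34. Isl1, a transcription factor of these neurons, differed by 2.87 ± 0.24. Eya1, a transcriptional coactivator, was lower in striatum (-1.01 ± 0.12, adjusted p = 6.85e-09), and the mitochondrial serine carrier Sfxn1 did not pass (0.27, adjusted p = 0.0732).

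Indirect pathway genes were measured for 6, and 4 were higher in striatum, with a median of 2.96. Drd2 gave 9.90, 11.14, 11.03 and 10.61 in striatum, against 5.82, 6.32, 5.45, 5.42 and 5.86 in hippocampus (4.90 ± 0.20, adjusted p = 1.33e-21). Penk gave 13.13, 13.73, 13.71 and 13.51 in striatum, against 8.73, 8.90, 8.41, 8.74 and 8.86 in hippocampus (4.79 ± 0.17). Both were clear of overlap, and both were lowest on striatal array 34, the array with the highest glutamatergic mean. The kainate receptor subunit Grik3 differed by 1.13 ± 0.16, while Plxdc1 (0.26) and adenosine kinase Adk (0.05) did not pass. Of the classic indirect pathway genes, the adenosine A2a receptor was not analysed here.

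Genes shared by both kinds of projection neuron were higher in striatum for 33 of 35, with a median of 2.58, and 0 were lower by limma, also at an unadjusted p under 0.05. The mu opioid receptor Oprm1 (0.34, adjusted p = 0.127) and the cannabinoid receptor Cnr1 (0.17, adjusted p = 0.359) did not pass. DARPP-32 (Ppp1r1b), the phosphatase inhibitor switched on by cAMP-dependent kinase, gave 11.66, 12.69, 12.56 and 12.20 in striatum, against 8.54, 8.13, 8.56, 7.95 and 8.37 in hippocampus. This was a difference of 3.97 ± 0.18 (15.7-fold). Rgs9, which speeds the shut-off of G protein signals, differed by 3.94 ± 0.14, the retinoic acid receptor Rarb by 3.63 ± 0.13 and the retinoid receptor Rxrg by 3.84 ± 0.18. Without array 35, the counts over these lists were 33 of 35, 8 of 10 and 4 of 6 higher for shared, direct and indirect genes.

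Of 19 transcription factors of the developing or adult striatum, 14 were higher and 2 lower in striatum, with a median of 1.93. Foxp2 gave 9.49, 10.39, 10.25 and 9.93 in striatum, against 6.21, 5.75, 5.87, 5.64 and 5.85 in hippocampus, and all of its other 5 probe sets passed in the same direction. Six3 (3.35 ± 0.22) and Meis1 (2.41 ± 0.17) were also higher. The lower ones were Ikzf2 (-0.63 ± 0.10) and Dlx1 (-0.76 ± 0.27, adjusted p = 0.035), an interneuron factor in the adult brain, and Dlx2 did not pass. Without array 35 Dlx1 did not pass either. Among 21 transcription factors of the pallium, from which hippocampus and cortex form, 12 were lower in striatum and 0 higher at the threshold in limma, with a median of -0.69, and 13 and 1 had an unadjusted p under 0.05. Neurod1 gave 6.95, 4.51, 4.83 and 5.58 in striatum, against 8.98, 8.96, 9.51, 9.21 and 8.96 in hippocampus. Lhx2 (-1.30 ± 0.12), Emx2 (-1.11 ± 0.13) and the mineralocorticoid receptor Nr3c2 (-1.66 ± 0.19) were lower too. Mef2c (0.42), Klf7 (0.15) and Id2 (0.04) did not pass.

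The 3 lists of hippocampal field markers all had negative medians. In the dentate gyrus list 10 of 13 were lower, 2 were higher and the median was -1.56. Lct, whose transcript marks dentate granule cells in mouse, gave 4.33, 4.66, 4.33 and 4.36 in striatum, against 8.80, 9.05, 8.47, 9.27 and 8.82 in hippocampus (-4.46 ± 0.31). C1ql2, a granule cell synapse protein, gave 5.34, 5.62, 5.11 and 5.09 in striatum, against 8.80 to 8.94 in hippocampus (-3.58 ± 0.37). For both, striatal array 35 was the highest striatal array. The 2 higher members were the calcium buffer calbindin (Calb1, 0.60 ± 0.17), abundant in striatal projection neurons as well, and Pdzd2 (0.91 ± 0.16).

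In the CA1 list 8 of 10 were lower, with a median of -1.20. Fibcd1 gave 6.00, 5.88, 5.54 and 5.78 in striatum, against 8.58, 9.19, 8.73, 8.90 and 8.82 in hippocampus (-3.05 ± 0.22, adjusted p = 5.32e-14). Spink8 (-3.20 ± 0.23) and Gpr161 (-3.40 ± 0.23) were likewise low on every striatal array. Wfs1 and Pou3f1 did not pass. The CA2 and CA3 list was mixed, with 7 of 14 lower, 3 higher and a median of -0.59. The neuropeptide Y receptor Npy2r gave 5.60, 4.96, 5.02 and 5.69 in striatum, against 8.36, 8.82, 8.16, 8.46 and 8.45 in hippocampus (-3.13 ± 0.31). The higher ones were Pcp4 (1.79 ± 0.13), a calmodulin regulator, Necab2 (0.74 ± 0.18) and Coch. Coch, which encodes the secreted protein cochlin, gave 9.84, 10.14, 10.40 and 9.98 in striatum, against 6.79, 5.38, 6.67, 6.76 and 5.92 in hippocampus (3.79 ± 0.33), so it was far from overlap.

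Glutamatergic markers common to cortex and hippocampus were lower in striatum for 9 of 11, with a median of -0.81, and for 7 of 11 without array 35. Neurod6, a transcription factor of pyramidal neurons, gave 8.85, 4.60, 7.31 and 8.37 in striatum, against 10.53, 10.87, 10.48, 10.80 and 10.64 in hippocampus. Every striatal array was lower, but they spanned more than 4 log2 units, and the SE was large (-3.39 ± 0.65, adjusted p = 8.42e-05). Tbr1, a factor of cortical projection neurons, gave 8.70, 4.84, 7.43 and 8.12 in striatum, against 7.41 to 7.77 in hippocampus, so that 2 striatal arrays lay above all hippocampal arrays, 1 among them and 1 below all. The cortical layer list moved both ways, with 5 of 14 higher and 4 lower (median 0.38). Krt12 (1.53 ± 0.34), the corepressor Tle4 (1.09 ± 0.11) and Lamp5 (0.88 ± 0.22) were higher, while Fezf2 (-1.65 ± 0.28) and Tshz2 (-2.26 ± 0.32) were lower.

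**Figure D3:**
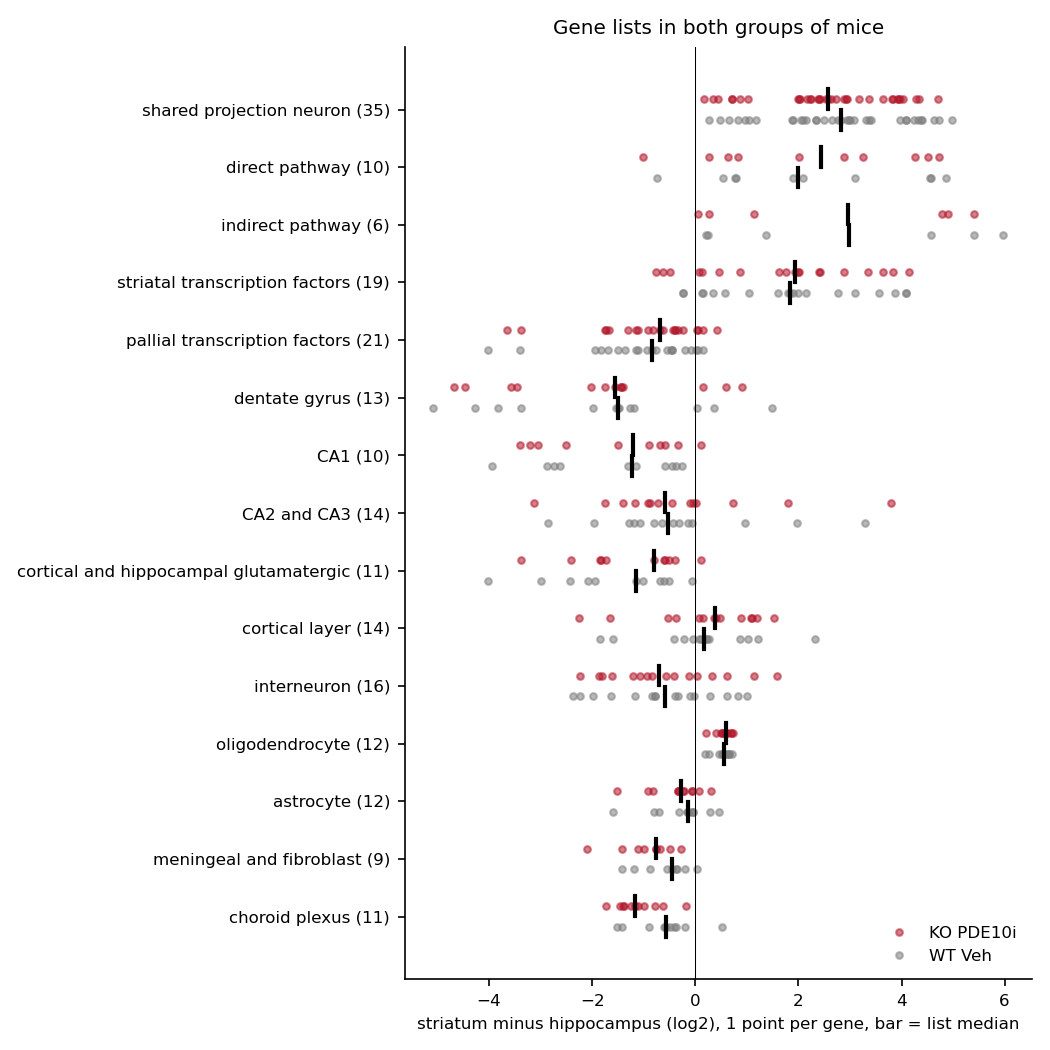
Striatum minus hippocampus (log2, horizontal axis) of every measured member of 15 gene lists, 1 point per gene, in KO PDE10i (red, upper row of each list) and WT Veh mice (grey, lower row), with the list median as a bar and the number of measured genes in parentheses. The striatal neuron lists have medians between 1.83 and 2.97 in both groups of mice, and the dentate gyrus and CA1 lists medians between -1.20 and -1.56. The medians of the groups of mice are further apart in other lists, such as choroid plexus (-1.18 in KO PDE10i and -0.57 in WT Veh).

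Genes of both fast transmitters were measured. For GABA synthesis and transport 4 of 7 were higher in striatum and 1 was lower (median 0.68). Gad2, which makes GABA, gave 11.14, 11.81, 11.74 and 11.41 in striatum, against 9.86, 10.41, 10.01, 9.98 and 9.91 in hippocampus (1.49 ± 0.13). The vesicular GABA transporter Slc32a1 (1.52 ± 0.11), Gad1 (0.68 ± 0.07) and the GABA-degrading Abat (1.10 ± 0.07) were higher, and the transporter Slc6a13, found in meninges, was lower (-0.76 ± 0.19). For glutamate release and uptake 3 of 6 were lower, namely Slc17a6 (-2.89 ± 0.64), Slc17a7 (-1.83 ± 0.52) and Slc1a1 (-0.43 ± 0.07). The glial transporters Slc1a2 and Slc1a3 did not pass. Slc17a7 on striatal array 34 lay within the hippocampal range. Without array 35, 2 of these 6 were lower.

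Interneuron markers went both ways, with 4 of 16 higher and 8 lower, beside 10.6% and 15.5% of all genes. Reelin (Reln, 1.59 ± 0.22), tyrosine hydroxylase (Th, 1.14 ± 0.14) and neuropeptide Y (Npy, 0.62 ± 0.12) were higher in striatum, whereas Kit (-1.20 ± 0.12), Ndnf (-1.07 ± 0.17) and the serotonin receptor Htr3a (-0.84 ± 0.12) were lower. Somatostatin (Sst) was high in both regions and did not pass (-0.12, adjusted p = 0.486). Of 9 cholinergic markers, 4 were higher in striatum, where the local acetylcholine neurons are. The cholinergic transcription factor Lhx8 gave 6.55, 6.54, 7.54 and 7.35 in striatum, against 3.98, 3.85, 3.83, 3.56 and 3.54 in hippocampus (3.24 ± 0.19). The vesicular acetylcholine transporter Slc18a3 (1.07 ± 0.15), the choline transporter Slc5a7 (0.75 ± 0.14) and Gbx1 (0.48 ± 0.12) were also higher.

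The cAMP and cGMP pathway held a few genes that were much higher in striatum among many that were not. Of all genes, 10.6% were higher and 15.5% lower. Of 18 phosphodiesterases 8 were higher and 2 lower (7 and 1 without array 35), with a median of 0.22. Besides Pde10a, the higher ones with the smallest p were Pde1b (2.92 ± 0.11), Pde7b (3.36 ± 0.14), Pde1c (2.55 ± 0.18) and Pde4b (1.12 ± 0.10). Pde1b, which calcium and calmodulin switch on, gave 12.04, 12.84, 12.84 and 12.56 in striatum, against 9.75, 9.55, 9.51, 9.60 and 9.86 in hippocampus. Of 11 cyclases 3 were higher and 5 lower. Adcy5, the main adenylyl cyclase of striatal projection neurons, gave 11.54, 12.34, 12.34 and 12.04 in striatum, against 9.44, 9.69, 9.26, 9.31 and 9.48 in hippocampus (2.63 ± 0.12). The nitric oxide receptor subunits Gucy1a1 (2.01 ± 0.23) and Gucy1b1 (0.71 ± 0.08) were higher with it, and Adcy6 (-0.69 ± 0.09) and Adcy9 (-0.57 ± 0.08) were lower. The negative differences of Adcy8 (-1.84) and Adcy1 (-1.38) were larger in size.

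Among 24 cAMP and cGMP effectors 8 were higher and 4 lower (2 lower without array 35), with a median of 0.06. Arpp21 (3.17 ± 0.21) and Arpp19 (2.38 ± 0.22), substrates of cAMP-dependent kinase, and its regulatory subunit Prkar2b (1.93 ± 0.13) were higher. The kinase inhibitor Pkib was lower (-1.62 ± 0.17), and the catalytic subunit Prkaca (-0.15, adjusted p = 0.0613) and the regulatory subunits Prkar1a and Prkar1b did not pass. Of 24 G protein subunits 7 were higher and 6 lower (3 lower without array 35). Gnal, the stimulatory subunit that couples D1 and A2a receptors to adenylyl cyclase in striatum, gave 11.80, 12.42, 12.55 and 12.31 in striatum, against 9.59, 9.82, 10.11, 9.73 and 9.41 in hippocampus (2.54 ± 0.12). The subunits Gng7 (2.39 ± 0.18), Gnb4 (2.21 ± 0.17) and Gnb5 (1.06 ± 0.08) were higher too, and the widely used stimulatory subunit Gnas was lower (-0.74 ± 0.13). RGS proteins were higher for 8 of 16 and lower for 1, Rgs19 (-0.72 ± 0.10). Rgs2 (1.82 ± 0.17) and Rgs20 (1.70 ± 0.16) followed Rgs9.

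Receptors and channels moved both ways, and their counts stand beside 10.6% of all genes higher and 15.5% lower. Of 31 monoamine, acetylcholine, purine, opioid and cannabinoid receptors 11 were higher and 8 lower. The kappa opioid receptor Oprk1 (2.54 ± 0.15) and the serotonin receptor Htr1b (2.32 ± 0.14) were higher, Htr5b was lower (-2.26 ± 0.20), and the muscarinic receptor Chrm1 did not pass (-0.06). Glutamate receptors were higher for 4 of 21 and lower for 7, with Grm4 (1.23 ± 0.18) and Grm3 (1.09 ± 0.12) higher and Grm2 (-2.06 ± 0.21) and Grik4 (-1.17 ± 0.15) lower. GABA receptors were higher for 4 of 12 and lower for 3. The subunits went in both directions, Gabrd (1.96 ± 0.14), Gabrg3 (1.07 ± 0.14) and Gabra4 (0.71 ± 0.08) being higher and Gabra5 (-2.01 ± 0.26) and Gabrb1 (-0.69 ± 0.08) lower in striatum. Of 50 potassium channel genes 12 were higher and 16 lower, and of 26 sodium and calcium channel genes 8 were higher and 6 lower. Kcna5 (3.15 ± 0.18), Kcnt1 (1.45 ± 0.14) and Kcnk2 (1.33 ± 0.10) were higher and Kcnn2 was lower (-1.28 ± 0.12). Cacng4 (2.03 ± 0.15) and the calcium channel subunit Cacna2d3 (0.75 ± 0.12) were higher and the sodium channel subunit Scn3b was lower (-0.70 ± 0.14). Without array 35 the potassium channel counts were 13 higher and 10 lower.

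Of 29 calcium-binding and calmodulin genes 10 were higher and 8 lower (5 lower without array 35), with Pcp4l1 (3.03 ± 0.19) and the calmodulin kinase Camk4 (1.39 ± 0.10) higher and the ryanodine receptor Ryr2 (-1.48 ± 0.18) lower. Retinoid genes were higher for 5 of 16 and lower for 3, or 3 and 2 without array 35. Rarb, Rxrg and the binding protein Crabp1 (1.42 ± 0.13) were higher, and the retinoic acid synthesis enzymes Aldh1a2 (-1.52 ± 0.26) and Aldh1a1 (-0.59 ± 0.21) were lower. Neuropeptide genes were higher for 8 of 25 and lower for 8, or 7 and 4 without array 35. With all arrays, the shares over all genes were 10.6% higher and 15.5% lower. Next to Penk, Tac1 and prodynorphin, the granin Scg2 (1.07 ± 0.16) was higher, and gastrin-releasing peptide (Grp, -2.88 ± 0.43) and chromogranin B (Chgb, -0.66 ± 0.14) were lower.

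Early response genes are switched on by neurons within minutes of activity. In striatum 13 of 31 were higher and 8 lower, with a median of 0.36, beside 10.6% and 15.5% of all genes. In WT Veh mice the counts were 8 higher and 12 lower with a median of 0.006. The difference between the groups of mice was not tested for the list as such. Homer1 (0.94 ± 0.10) and Per1 (0.88 ± 0.12) were higher in KO PDE10i striatum, and Jun (-1.38 ± 0.13), Nr4a3 (-2.14 ± 0.23) and the phosphatase Dusp4 (-2.08 ± 0.22) were lower. Nr4a1 gave 10.19, 10.44, 10.11 and 10.16 in striatum, against 9.65, 9.60, 9.48, 9.47 and 9.38 in hippocampus. The regions did not overlap, but with the spread of this gene over all groups the difference did not pass (0.71 ± 0.39, adjusted p = 0.193).

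Genes of glia, vessels and meninges were counted as well, beside 10.6% of all genes higher and 15.5% lower. Oligodendrocyte genes were higher in striatum for 11 of 12 with a median of 0.59, and for 9 without array 35. Myelin genes such as Mog (0.74 ± 0.19), Fa2h (0.70 ± 0.15) and Cnp (0.52 ± 0.13) were among them, as was Mbp (0.21 ± 0.06), while Opalin did not pass (0.40, adjusted p = 0.096). Astrocyte genes were lower for 7 of 12 and higher for 1 (0 without array 35), with Gfap (-1.52 ± 0.32) and the water channel Aqp4 (-0.91 ± 0.16) lower. Microglial genes were higher for 4 of 10, the largest difference being that of the lysosomal Cd68 (1.01 ± 0.10), while C1qa, C1qb and C1qc did not pass. Meningeal and fibroblast genes were lower for 5 of 9, with decorin (Dcn, -2.11 ± 0.23) and lumican (Lum, -1.42 ± 0.22) lower. In the thalamic list 1 of 11 was higher, Synpo2 (2.63 ± 0.27), and 2 were lower, and in the hypothalamic list 2 of 8 were higher, thyrotropin-releasing hormone (Trh, 0.63 ± 0.15) and oxytocin (Oxt, 0.27 ± 0.10). Both shares are near the 26.1% of all genes, and Oxt did not pass without array 35.

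In 4 lists 0 members passed between the regions of KO PDE10i mice by limma, and 0 had an unadjusted p under 0.05. These were choroid plexus (11 measured), ependymal (7), oligodendrocyte precursor (6) and vascular (10). The ependymal list had a median of -0.30, against 0.39 in WT Veh mice. The choroid plexus list had a median of -1.18 all the same, and of -1.96 without striatal array 35. Its most abundant member, transthyretin (Ttr), gave 9.95, 14.59, 12.11 and 13.97 in striatum, against 14.63, 13.18, 14.62, 11.96 and 14.47 in hippocampus. The regions overlapped, and the arrays within a region differed by more than 2 log2 units (-1.12 ± 1.15, adjusted p = 0.523).

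The regional differences in KO PDE10i mice were next set beside those in WT Veh mice, which share no array with them. In WT Veh mice 6160 genes passed (33.9%), and 672 of them (3.69%) differed by at least 2-fold, 300 higher and 372 lower in striatum. Of these 672, 647 passed in KO PDE10i mice with the same sign (96.3%), against 26.1% of all genes that passed there in either direction. The remaining 25 had the same sign but did not pass, and none of the 672 passed with the opposite sign. Over all 6160 WT Veh genes, whatever their size, 3945 passed in KO PDE10i mice with the same sign (64.0%) and 2 with the opposite sign. In 532 the difference was at least 2-fold in both groups of mice, 83.4% of the KO PDE10i list of 638 and 79.2% of the WT Veh list. Of the KO PDE10i list, 18 genes did not pass in WT Veh mice and none was opposite. At 4-fold, 61 genes were in both striatal lists (87.1% of 70 in KO PDE10i and 78.2% of 78 in WT Veh), and 57 in both hippocampal lists (79.2% of 72 and 80.3% of 71). Cartpt was the gene of the 4-fold KO PDE10i lists that did not pass in WT Veh mice.

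Across all genes the regional differences of the groups of mice had a Pearson r of 0.938 and a Spearman rho of 0.818, and r was 0.984 over the 672, as descriptions over genes that are not independent. The median ratio of the KO PDE10i to the WT Veh difference was 0.941, with 0.927 for genes higher and 0.952 for genes lower in striatum, and 63.8% of the 672 were smaller in KO PDE10i mice. As the 672 were chosen by their size in WT Veh mice, a ratio under 1 can come from the choice. The 95% interval of the change lay within 1 log2 unit either way for 526 of the 672 (78.3%). For the other genes this spread is too wide to say that the regional difference held within 2-fold.

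**Figure D4:**
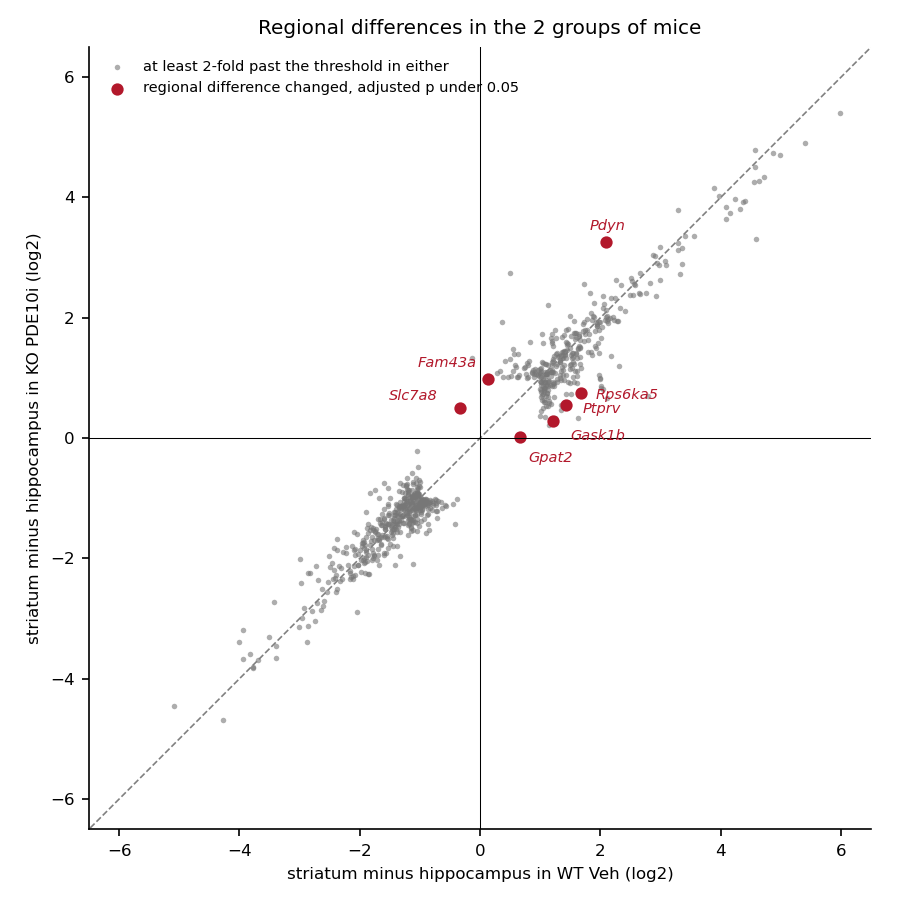
Striatum minus hippocampus (log2) in KO PDE10i mice (vertical axis) against that in WT Veh mice (horizontal axis), for genes past the threshold and at least 2-fold in either group of mice (grey) and the 7 genes whose regional difference changed past the threshold (red). Points lie along the dashed line of equal differences, with r = 0.984 over the 672 WT Veh genes, and Pdyn, Fam43a and Slc7a8 lie above it while Rps6ka5, Ptprv, Gask1b and Gpat2 lie below it.

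The level of these genes on each array shows where the regions stand. The 300 genes higher in WT striatum averaged 8.59, 9.10, 9.06 and 8.91 on KO PDE10i striatal arrays 34, 35, 37 and 39, against 7.23 to 7.31 in KO PDE10i hippocampus. In WT Veh mice they averaged 8.85 to 9.25 in striatum, against 7.20 to 7.35 in hippocampus. The 372 genes lower in WT striatum averaged 7.73, 6.70, 7.19 and 7.53 on the KO PDE10i striatal arrays, against 8.77 to 8.92 in hippocampus. In WT Veh mice these gave 6.69 to 7.50 in striatum, against 8.67 to 8.85 in hippocampus. KO PDE10i striatal array 34, highest in glutamatergic markers, was thus the lowest of its group in striatal genes and the highest in hippocampal genes.

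None of the 30 largest differences changed past the threshold. At an unadjusted p under 0.05 in limma, 2 of them differed, Rgs9 (change -0.47 ± 0.19) and Spink8 (0.74 ± 0.32). Over the 35 shared projection neuron genes the median change was -0.24, against -0.017 over all genes. Of these 35, 0 changed past the threshold and 6 had an unadjusted p under 0.05 in limma, against 794 of all 18193 genes. The median change was -0.15 for direct and -0.20 for indirect pathway genes. A small general fall in the striatal lists is thus not excluded. Such moves were not confined to these lists. Of 7 ependymal genes 0 changed past the threshold and 5 had an unadjusted p under 0.05 in limma, with a median change of -0.62. The same limit was met by 5 of 16 RGS genes (median change 0.17) and 5 of 16 retinoid genes (-0.19). Among the shared genes, Rasgrp2 (3.81 in KO PDE10i and 4.33 in WT Veh), Rarb (3.63 and 4.09) and Adcy5 (2.63 and 3.00) had smaller regional differences in KO PDE10i mice. Ptpn5 (2.25 and 1.90) had a larger one. For a selection of other single genes the interval was narrow and the change small, which does not speak for the rest of the lists. The change in Pde1b was -0.03 (95% interval -0.33 to 0.27), in Pde7b -0.04 (-0.42 to 0.33), in Slc35d3 -0.14 (-0.58 to 0.31), in Gad2 0.01 (-0.34 to 0.35) and in Penk 0.22 (-0.24 to 0.68). Drd1 (-0.07, interval -0.73 to 0.59) and Drd2 (-0.51, interval -1.05 to 0.03) were less tightly bounded. On the hippocampal side the change was -0.03 in Cabp7 (-0.55 to 0.50) and 0.01 in Pcdh20 (-0.72 to 0.74), while for Neurod6 it could lie anywhere from -1.14 to 2.39. Pde10a itself had a change of -0.59 ± 0.28 (unadjusted p = 0.0384 in limma), which did not pass after adjustment. Every KO PDE10i hippocampal array lay above the WT Veh hippocampal mean for this gene. The smaller regional difference therefore does not show a lower striatal signal.

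The regional difference changed past the threshold for 7 genes (0.0385% of those tested), 3 more positive and 4 less positive in KO PDE10i mice. At an unadjusted p under 0.05 in limma there were 794 genes, no more than this limit gives when no gene changes. This contrast holds genotype and drug together, and they cannot be told apart within it. For all 7 the hippocampal means of KO PDE10i and WT Veh mice lay within 0.13 log2 units of each other, while the striatal means were at least 0.53 apart.

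Pdyn, the precursor of dynorphin made by direct pathway neurons, had the largest change. It gave 9.08, 9.09, 9.55 and 9.51 in KO PDE10i striatum, against 5.82, 5.95, 6.32, 6.11 and 6.07 in KO PDE10i hippocampus, and 8.17, 7.89, 8.18, 8.09 and 7.83 in WT Veh striatum. Every KO PDE10i striatal array was above every WT Veh one. The regional difference was 3.25 in KO PDE10i and 2.10 in WT Veh mice (change 1.16 ± 0.23, adjusted p = 0.0381), beside 3.42 in KO Veh and 2.69 in WT PDE10i mice.

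Fam43a gave 7.72, 7.70, 8.16 and 8.01 in KO PDE10i striatum and 6.74 to 7.04 in KO PDE10i hippocampus, against 7.23, 7.05, 6.89, 6.72 and 7.35 in WT Veh striatum. The regional difference was 0.98 in KO PDE10i and 0.14 in WT Veh mice (change 0.84 ± 0.17, adjusted p = 0.0376), and it was 0.99 in KO Veh and 0.98 in WT PDE10i mice. Slc7a8, a transporter of large neutral amino acids, gave 8.39, 8.56, 8.40 and 8.60 in KO PDE10i striatum and 7.80 to 8.14 in KO PDE10i hippocampus, against 7.76, 7.85, 7.63, 7.63 and 7.67 in WT Veh striatum. It was thus higher in striatum in KO PDE10i mice (0.50) and lower there in WT Veh mice (-0.33), a change of 0.83 ± 0.13 (adjusted p = 0.00314), with 0.39 in KO Veh and 0.33 in WT PDE10i mice. It stayed past the threshold whichever of the 20 arrays of these groups was left out.

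The 4 genes with a smaller regional difference were all higher in striatum than in hippocampus in WT Veh mice. Rps6ka5, the kinase MSK1 that phosphorylates CREB and histone H3, gave 8.32, 8.72, 8.79 and 8.65 in KO PDE10i striatum, against 9.36, 9.36, 9.55, 9.60 and 9.41 in WT Veh striatum. The regional difference was 0.75 in KO PDE10i and 1.68 in WT Veh mice (change -0.92 ± 0.17, adjusted p = 0.0136), beside 0.92 in KO Veh and 1.47 in WT PDE10i mice. Its other 2 probe sets gave changes of -0.79 and -0.13 that did not pass. Ptprv, a receptor tyrosine phosphatase, gave 6.57, 7.23, 6.70 and 6.56 in KO PDE10i striatum, against 7.49, 7.60, 7.69, 7.96 and 7.25 in WT Veh striatum. Its change was -0.87 ± 0.17 (adjusted p = 0.0292).

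Gask1b gave 4.86, 4.65, 4.80 and 4.83 in KO PDE10i striatum, against 5.07, 5.64, 5.99, 5.94 and 5.34 in WT Veh striatum (change -0.93 ± 0.19, adjusted p = 0.0482). Gpat2, a glycerol phosphate acyltransferase, gave 3.86, 3.94, 3.90 and 3.84 in KO PDE10i striatum, against 4.41, 4.18, 4.48, 4.43 and 4.56 in WT Veh striatum (change -0.66 ± 0.12, adjusted p = 0.0136). Neither passed between regions in KO PDE10i mice, and both are near the low end of the signal range, where the scale is compressed. Leaving out 1 of the 20 arrays at a time, Rps6ka5 passed in 17 fits, Gpat2 in 18, Ptprv in 9, Fam43a in 8, Pdyn in 6 and Gask1b in 2. The lowest count of genes, 1, came without KO PDE10i hippocampal array 39 or striatal array 39, and the highest, 10, without striatal array 35. The count was 4 or fewer without any 1 of 14 of the 20 arrays. These were KO PDE10i striatal arrays 34, 37 and 39, KO PDE10i hippocampal arrays 34, 35, 37 and 39, WT Veh striatal arrays 2, 3 and 4 (3 genes without array 4), and WT Veh hippocampal arrays 1, 3, 5 and 6.

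**Figure D5:**
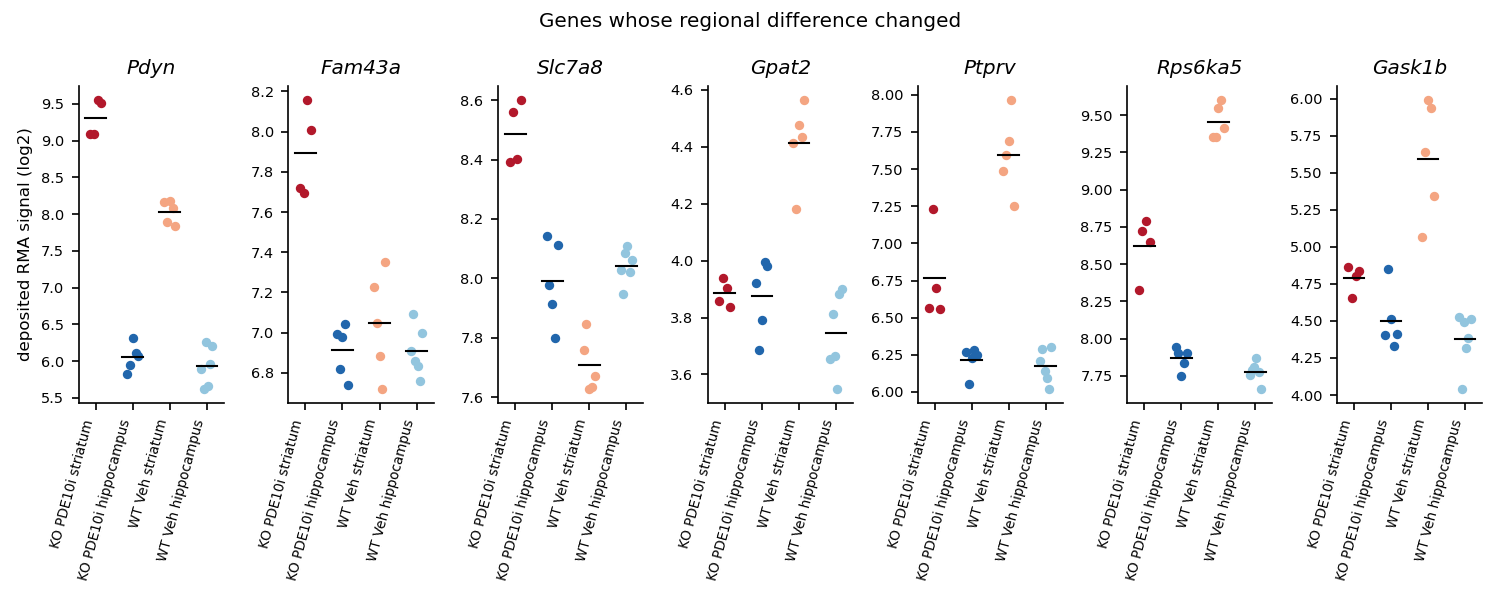
Deposited log2 signal (vertical axes, 1 scale per gene) of the 7 genes whose regional difference changed, on each array of KO PDE10i striatum, KO PDE10i hippocampus, WT Veh striatum and WT Veh hippocampus, with group means as bars. The hippocampal groups lie at similar levels for each gene, and the KO PDE10i striatal arrays are above the WT Veh ones for Pdyn, Fam43a and Slc7a8 and below them for the other 4.

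The genes past a limit in one group of mice and not in the other were read with the test of the change, which Gask1b alone of these genes passed. Of the 25 WT Veh genes that did not pass in KO PDE10i mice, 16 were higher and 9 lower in WT striatum. Those with the largest WT Veh differences, named after their values were seen, were the matrix protein Abi3bp (0.70 in KO PDE10i and 2.79 in WT Veh), the activin-type receptor Acvr1c (0.66 and 2.10) and the transcription factor Onecut2 (0.81 and 2.04). Abi3bp gave 4.97, 3.68, 3.75 and 4.78 in KO PDE10i striatum, against 3.36 to 3.75 in KO PDE10i hippocampus, so the regions overlapped. Of the 18 genes in the other direction, Cartpt, the precursor of the CART peptides, gave 8.57, 8.36, 8.96 and 8.92 in KO PDE10i striatum, against 5.84, 6.24, 6.21, 5.77 and 5.70 in KO PDE10i hippocampus. Its regional difference was 2.75 ± 0.51 in KO PDE10i and 0.49 in WT Veh mice, and the change of 2.25 had an adjusted p of 0.548. The angiotensin receptor Agtr1a (1.93 in KO PDE10i and 0.36 in WT Veh, adjusted p of the change 0.138) and Scg2 (1.07 and 0.28, adjusted p 0.388) were of the same kind.

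Against KO Veh mice, 0 genes changed in regional difference at the threshold in limma, 330 had an unadjusted p under 0.05, and the 4 with the smallest p were Muc15, Nostrin, Rarb and Tdrd12. Against WT PDE10i mice 0 genes passed as well, with a smallest adjusted p of 0.0504, and 2390 had an unadjusted p under 0.05. Mrpl47, Mup5, Rfx4 and Bag3 were among the smallest. Both groups of mice hold arrays whose chromosome 17 score lay on the other genotype's side, and without those arrays the count against WT PDE10i mice was 1090. Leaving out 1 array gave up to 264 genes there, without WT PDE10i striatal array 14, and 211 without KO PDE10i striatal array 35. These counts of 0 therefore do not show that the regional differences were alike.

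Promoter sequences were read for the genes at least 4-fold apart, since CREB, which cAMP-dependent kinase activates, binds the cAMP response element. The full palindromic element TGACGTCA, which reads the same on both strands, was searched in RefSeq promoters (GRCm38.p6) from 250 bases before to 50 after the start. It was found in 2 of 52 promoters of the genes higher in striatum (3.85%) and in 0 of 48 of the genes lower there, against 2.92% of the 14452 tested genes with a promoter. The 2 promoters are shown because they belong to the gene with the largest regional difference and to the 4-fold gene that did not pass in WT Veh mice, with the element in capitals, 78 bases before the start in Gpr6 (chr10:41072241-41072540, minus strand) and 112 bases before it in Cartpt (chr13:99900634-99900933, minus strand). A match is a description of the letters and not of a bound site.
Gpr6: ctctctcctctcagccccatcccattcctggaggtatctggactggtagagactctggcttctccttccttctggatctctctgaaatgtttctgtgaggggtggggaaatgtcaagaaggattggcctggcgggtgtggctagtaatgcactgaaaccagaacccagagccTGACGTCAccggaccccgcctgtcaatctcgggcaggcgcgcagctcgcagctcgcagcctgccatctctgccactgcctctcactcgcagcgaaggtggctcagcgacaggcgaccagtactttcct
Cartpt: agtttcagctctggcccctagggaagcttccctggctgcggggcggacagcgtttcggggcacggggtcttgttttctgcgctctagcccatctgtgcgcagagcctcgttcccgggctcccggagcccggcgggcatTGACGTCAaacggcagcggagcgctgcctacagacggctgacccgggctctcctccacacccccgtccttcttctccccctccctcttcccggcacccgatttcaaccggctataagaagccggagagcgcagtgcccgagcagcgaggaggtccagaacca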

How the data were processed

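Total RNA of microdissected striatum and hippocampus was measured on 42 Affymetrix arrays in 8 groups, assigned by the arrays' titles. The deposited table holds log2 values that the authors made, and the submitters' processing notes name RMA. This method subtracts background, normalizes arrays to 1 distribution and summarises the probes of a probe set, so overall shifts between arrays are largely removed. The sources give no software version and do not say whether all arrays were normalized together. Array medians lay between 6.05 and 6.12, and the number of arrays per group limits the precision.

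Of 45101 probe sets, 34945 had 1 gene in the platform annotation, 932 several, 9160 none listed and 64 were controls. Symbols were updated through RefSeq for 34741 probe sets. The table held 18193 genes, each by its brightest probe set on average (9010 had several), and no low values were filtered out. Differences were fitted to the 8 groups with limma 3.58.1 (lmFit, eBayes) in R 4.3.3, with Benjamini-Hochberg adjustment over all genes at 0.05, and regional differences were compared by interaction contrasts. Tables were made in Python 3.11.15. The script was tested on simulated data. Of 683 entries of 38 gene lists 622 were measured. The genes compared and the lists were chosen with earlier results of these data known.

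The genes named are Pde10a, the 15 largest differences in each direction among genes past the threshold without overlap, the 5 members per list with the lowest p, up to 3 members that did not pass or went the other way, by mean level, and per interaction the 8 largest in each direction past the threshold, or else the 4 with the smallest p, leaving out clone and predicted names. Of these genes the text gives a selection. Genes past a limit in only 1 group of mice were named after their values were seen. The alternatives were other samples in the fit, a replicate block, other choices of probe set, a filter on level, array weights, other scalings and leaving out each array.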

Additional observations from a re-analysis of the deposited data

Results flagged for a closer look

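The regional difference in KO PDE10i mice differed from that in WT Veh mice past the threshold, by the interaction test in limma, for 7 genes. The change was 1.16 for Pdyn (3.25 in KO PDE10i and 2.10 in WT Veh), 0.84 for Fam43a (0.98 and 0.14) and 0.83 for Slc7a8 (0.50 and -0.33). It was -0.93 for Gask1b (0.29 and 1.22), -0.92 for Rps6ka5 (0.75 and 1.68), -0.87 for Ptprv (0.55 and 1.42) and -0.66 for Gpat2 (0.01 and 0.67).

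Of 152 sets of values looked at for a sample far from the others of its group, 9 had one, where chance gives about 1 in 20. In KO PDE10i striatum, Ido1 was 8.25 on array 34 (8.85 to 8.93 on the others) and Lct was 4.66 on array 35 (4.33 to 4.36). Also on striatal array 35, the mean of the cAMP and cGMP effectors was 9.31 (9.40 to 9.41) and that of the GABA receptors 8.51 (8.74 to 8.77). In KO PDE10i hippocampus, array 35 stood apart in Serpina9 with 3.84 (4.07 to 4.15), in Ptprv with 6.05 (6.23 to 6.28) and in the mean of the potassium channels with 8.21 (8.24 to 8.25). Hippocampal array 37 had 9.31 for Dsp (8.71 to 8.86), and array 36 had a mean of 8.84 for the interneuron list (8.55 to 8.63). In striatum 3 of 4 and in hippocampus 3 of 5 such values were on array 35.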

How the results depend on the processing

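No named gene that passed the threshold changed sign under the alternatives run, but the balance of genes higher and lower in KO PDE10i striatum turned when arrays were centred (3186 higher and 2066 lower, against 1924 and 2821 as deposited). Genes past the threshold between the regions of KO PDE10i mice numbered 3842 to 5797 under the alternatives that leave out no single array, except for 3024 with the replicate block and 7559 with every probe set tested. Testing every probe set, which adds features, gave 10983 in WT Veh, 7957 in KO Veh and 10865 in WT PDE10i mice, and 1116 of 1196 WT Veh probe sets kept in KO PDE10i. Kept WT Veh genes otherwise numbered 462 to 683. The 7 changed genes became 27 with only the arrays compared, 28 with array weights and 31 without the arrays of the other chromosome 17 score, 3 with every probe set or with centred arrays, and 4 with only genes above the median level or with the glutamatergic marker covariate. Against WT PDE10i mice, where 0 passed, the counts were 1 with the replicate block, 60 with genes above the median level, 921 with array weights and 1090 without the arrays of the other chromosome 17 score. The cause of these moves was not tested. The covariate and the chromosome 17 alternative were chosen after seeing the data. The replicate block gave 8 changed genes and 644 kept. Same-numbered KO PDE10i arrays of the regions had correlations of deviations of -0.025, 0.061, 0.296 and 0.088. Such correlations ran from -0.382 to -0.092 in KO Veh, from -0.137 to 0.164 in WT Veh and from -0.119 to 0.185 in WT PDE10i mice. Not every array correlated best with its own number. Array 35 had the highest Gapdh 3′ to 5′ difference in both KO PDE10i regions, 0.67 in striatum and 0.39 in hippocampus. These values do not settle whether equal numbers mark the same animal, and the main fit did not pair the arrays.

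Leaving out 1 array at a time gave 3594 to 5042 genes in KO PDE10i, 4837 to 6754 in WT Veh, 4393 to 4796 in KO Veh and 6061 to 6362 in WT PDE10i mice. It gave 1 to 10 changed against WT Veh, 0 to 0 against KO Veh, 0 to 264 against WT PDE10i (also 194 without WT PDE10i striatal array 13 and 45 without hippocampal array 10), and 595 to 703 kept. For the named genes, such fits lost a call 124 times, gained one 27 times and left it 2626 times. The small number of arrays, and low signal for genes such as Gpat2, limit what can be called.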

Other observations

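Members of the lists not described above, chosen after their values were seen, added to the regional pattern of KO PDE10i mice. Among early response genes, Egr1 (1.25) and Egr2 (1.07) were higher in striatum and the neurotrophin Bdnf (-2.73) was lower. Among interneuron and peptide genes, calretinin (Calb2, -2.23), cholecystokinin (Cck, -1.86), the corticotropin-releasing hormone binding protein Crhbp (-1.81) and vasoactive intestinal peptide (Vip, -1.61) were lower. Meis2 (2.41), Foxp1 (2.00), Dlx6 (1.93) and Dlx5 (1.63) were higher with the other striatal transcription factors, and Prox1 (-1.75), which specifies dentate granule cells, was lower. All of these passed the threshold in limma. The striatal arrays were widely spread for Bdnf (SD 1.56), Cck (SD 1.57) and Vip (SD 1.60, n = 4).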
